A study of Mus musculus with 6 samples.

Results

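Plakins are large linker proteins that tie the filament systems of a cell to each other and to its junctions. Dystonin (Dst), plectin (Plec), microtubule-actin crosslinking factor 1 (Macf1), desmoplakin (Dsp), envoplakin (Evpl) and periplakin (Ppl) were taken by gene symbol, 6 of 24067 genes, together with their 24 annotated transcripts of 33819. The set was chosen by the difference between blebbistatin and control in the same libraries, above all by the FPKM of Dst and its transcript shares. All values of the 6 genes and their transcripts are therefore given as descriptions, and no test result supports them. The samples were submandibular salivary gland tissue of embryonic day 13 ICR mice, in 3 blebbistatin libraries and 3 control libraries, and the series title places the work on epithelial buds. Blebbistatin is a small molecule that blocks non-muscle myosin II. Neither dose, duration, vehicle nor the number of pooled glands is given in the sources used here. No label states whether libraries with the same treatment were cultured separately, so the p-values below rest on the spread between libraries, and that spread may be technical only.

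In epithelium, dystonin and plectin sit on the inner face of hemidesmosomes, the junctions that fix basal cells to the basement membrane, where they link integrin α6β4 and collagen XVII to keratin filaments. Desmoplakin does the corresponding work at desmosomes, between cells, and envoplakin and periplakin belong to the envelope of stratified epithelia. Long forms of dystonin and Macf1 are spectraplakins, which begin with an actin-binding domain and end with a microtubule-binding region, whereas the short epithelial form of dystonin, known as BPAG1e or BP230, lacks both ends and closes with a keratin-binding tail.

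Dst is the gene of the set that stood apart between the groups, and its short epithelial form carried most of that. It lies on mm10 chromosome 1 from 33908225 to 34308662 on the plus strand (Entrez 13518), with 4 annotated transcripts. Their lengths give them their names here: the 8787-nt form (NM_010081, 24 exons), the 17210-nt form (NM_133833, 93 exons), the 23252-nt form (NM_134448, 98 exons) and the 24271-nt form (NM_001276764, 103 exons). The 8787-nt form starts inside the gene, at 34160330, and ends at 34183903, while the others run on to 34308662. Of its exonic bases, 5639 belong to no other form (64.2%), namely a first exon of 167 nt and 2 last exons of 2703 nt and 2769 nt, and the 3148 bases of the 21 exons between are shared with all 3 long forms. The 24271-nt form has 1110 bases of its own, whereas the 17210-nt and 23252-nt forms have 0. The value of the 8787-nt form thus rests largely on bases of its own. Those of the single long forms rest on how the authors' tool divided the fragments that these forms share with each other. Most bases of each long form are absent from the 8787-nt form. In the deposited annotation 0 other genes overlap the exons of any of the 6 plakin genes.

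**Figure D1:**
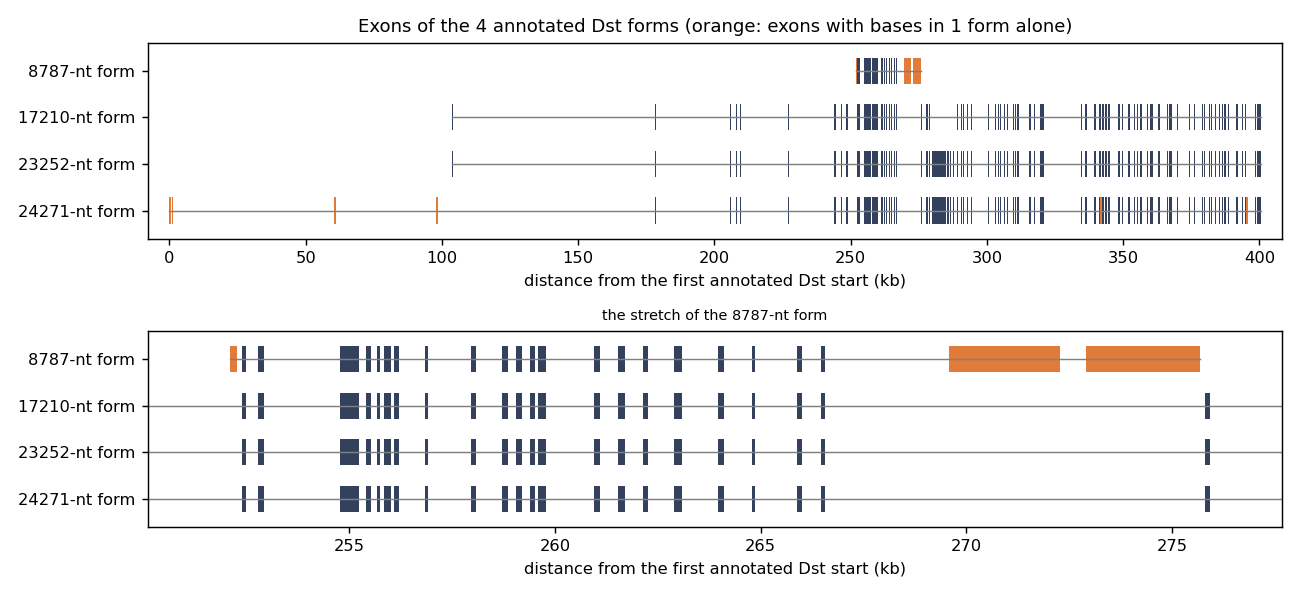
Exons of the 4 annotated Dst forms, by distance from the first annotated start in kb, over the whole gene (top) and over the stretch of the 8787-nt form (bottom). Orange marks exons with bases found in 1 form alone: the first and the last 2 exons of the 8787-nt form and 6 exons of the 24271-nt form.

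The first coding exons are shown because they are where the epithelial form and a long form part, on mm10 (GRCm38), plus strand, 5′ to 3′, with the start codon in capitals; they were read from GENCODE M21 transcripts at the exons of the deposited annotation, chr1:34160330-34160496 for the 8787-nt form and chr1:34011825-34011915 for the 17210-nt form.
Dst 8787-nt form, first exon: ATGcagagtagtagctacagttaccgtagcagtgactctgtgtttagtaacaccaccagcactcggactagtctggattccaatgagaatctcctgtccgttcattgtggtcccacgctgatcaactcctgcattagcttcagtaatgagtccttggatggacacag
Dst 17210-nt form, first exon: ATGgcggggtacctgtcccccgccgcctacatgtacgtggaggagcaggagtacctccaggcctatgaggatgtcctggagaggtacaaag

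The RefSeq promoter table (GRCm38.p6) holds windows for 3 of the 6 genes, with 2 windows for Dst. Dst has 3 annotated starts in the deposited annotation, at 33908225 for the 24271-nt form, at 34011825 for the 17210-nt and 23252-nt forms and at 34160330 for the 8787-nt form. The last 2 starts are also the first base of the start codon, so these deposited forms hold no bases ahead of it. Both Dst windows are printed because they lie just ahead of the last 2 of these starts, and none is printed for the first. They lie at chr1:34011345-34011644, 230 bases ahead of the deposited start of the 17210-nt form when counted from the RefSeq start at 34011595, and at chr1:34160010-34160309, 70 bases ahead of the deposited start of the 8787-nt form when counted from the RefSeq start at 34160260. Each runs from 250 bases before to 50 bases after its RefSeq start, plus strand, 5′ to 3′, with GC boxes (GGGCGG on either strand) in capitals.
Dst upstream promoter: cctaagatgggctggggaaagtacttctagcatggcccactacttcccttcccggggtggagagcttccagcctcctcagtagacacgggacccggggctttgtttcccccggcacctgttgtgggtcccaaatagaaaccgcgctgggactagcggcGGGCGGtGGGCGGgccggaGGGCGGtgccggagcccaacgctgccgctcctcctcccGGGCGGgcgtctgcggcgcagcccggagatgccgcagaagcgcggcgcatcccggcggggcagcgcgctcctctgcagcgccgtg
Dst internal promoter: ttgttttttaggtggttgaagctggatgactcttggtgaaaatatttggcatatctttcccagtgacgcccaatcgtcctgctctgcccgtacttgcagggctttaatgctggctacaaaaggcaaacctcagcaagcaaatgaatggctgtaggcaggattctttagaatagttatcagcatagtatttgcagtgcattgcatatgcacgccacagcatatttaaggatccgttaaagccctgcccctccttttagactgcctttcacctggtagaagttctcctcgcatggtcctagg

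The windows differed in base composition. The upstream window had 70.3% G and C and 31 CG dinucleotides, more than 90.9% and 89.4% of the 32851 promoter windows in the table, and the internal window had 46.0% G and C and 6 CG dinucleotides, more than 25.1% and 43.6% of them. GGGCGG was found 4 times upstream and 0 times in the internal window, and 35.7% of all windows hold it. TATAAA (in 13.6% of windows), the TEAD core GGAATG (14.7%) and the AP-1 letters TGACTCA (5.20%) were found 0 times in either window on either strand. CC and GG with any 6 bases between them occurred 8 times upstream and 1 time in the internal window (73.3% of windows). This frame is looser than the CArG box of serum response factor, whose 6 middle bases are A or T. None of these matches has only A and T there. The E-box frame CANNTG occurred 1 time upstream and 3 times in the internal window (72.3%). A match in letters is not a bound site.

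Dst stood at 10.1, 5.60 and 7.64 FPKM in blebbistatin replicates 1 to 3, and at 3.84, 2.50 and 3.89 FPKM in control replicates 1 to 3. FPKM is a fragment count scaled to transcript length and library size. Every treated library lay above every control library, and the means were 7.77 ± 2.23 FPKM with blebbistatin and 3.41 ± 0.791 FPKM in controls (SD, n = 3 each), a ratio of 2.28. On the scale of log2(FPKM + 1), on which all fold changes are given, the difference was 0.98 ± 0.20 (moderated SE from limma across all genes), and it was 0.79 without blebbistatin replicate 1. In bulk RNA a change in the number of cells of a type and a change in RNA per cell cannot be told apart. Of the 6 plakin genes 0 passed an adjusted p of 0.05 (limma with Benjamini-Hochberg adjustment), where 0.0780% of the 11540 genes tested did, and 1, Dst, had an unadjusted p under 0.05, as had 9.36% of all genes. Dst was also the 1 plakin gene without overlap between the groups, which 14.3% of genes share in either direction and 7.48% in the higher direction. Of the 11540 genes 25, or 0.217%, had a log2 fold change at least as high, Dst among them. By unadjusted p (limma) Dst ranked 117. Dst was chosen by this contrast, so neither place is support.

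**Figure D2:**
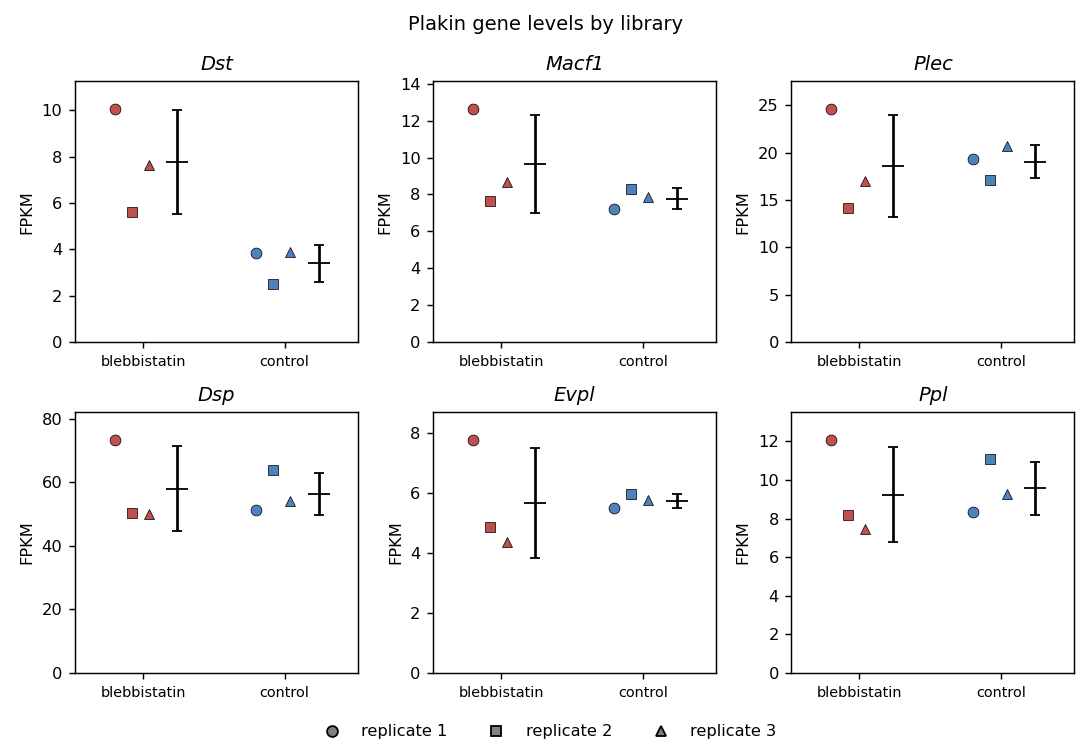
FPKM of the 6 plakin genes in each library (symbols, replicates 1 to 3), blebbistatin left and control right in each panel, with the mean and SD of the 3 libraries beside the points. For Dst the treated libraries, from 5.60 to 10.1 FPKM, lie above the controls, from 2.50 to 3.89 FPKM, and for the other 5 genes the groups overlap.

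The 8787-nt epithelial form accounted for most of the difference in Dst. It stood at 7.02, 4.20 and 5.56 FPKM in the treated libraries and at 2.38, 1.28 and 1.95 FPKM in the controls. The lowest treated library was above the highest control, and the ratio of the means, 5.59 ± 1.41 FPKM with blebbistatin and 1.87 ± 0.553 FPKM in controls (SD, n = 3 each), was 2.99. The log2 fold change was 1.20 ± 0.20 (moderated SE). Behind these values stand an estimated 1721, 1029 and 1333 fragments in treated libraries and 585, 374 and 484 in controls. The difference between the group means of this form, 3.72 FPKM, was 85.4% of that of the gene, 4.36 FPKM.

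The long forms overlapped between the groups. The 17210-nt form had 1.93, 0.934 and 1.26 FPKM in treated libraries and 0.982, 0.805 and 1.26 FPKM in controls, a log2 fold change of 0.22 ± 0.20 (moderated SE). The 24271-nt form was at 1.10, 0.471 and 0.819 FPKM with blebbistatin and at 0.483, 0.411 and 0.671 FPKM in controls. In both, blebbistatin replicate 1 was the highest library and blebbistatin replicate 2 lay among the controls. Blebbistatin replicate 3 also lay within the range of the controls for the 17210-nt form, and above them for the 24271-nt form. The 23252-nt form was assigned at most 1.20e-06 FPKM in any library. Summed over the 3 long forms, Dst was at 2.18 ± 0.821 FPKM with blebbistatin and 1.54 ± 0.365 FPKM in controls (SD, n = 3 each), a ratio of means of 1.41.

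The epithelial form made up more of Dst in every treated library than in any control. Its share of the summed Dst FPKM was 69.8%, 74.9% and 72.8% in treated libraries and 61.9%, 51.3% and 50.2% in controls. The share averaged 72.5% ± 2.58 with blebbistatin and 54.5% ± 6.44 in controls (SD, n = 3 each), 18.0 percentage points apart. The 17210-nt form made up 17.5% ± 1.52 with blebbistatin and 30.1% ± 3.94 in controls, and the 24271-nt form 10.03% ± 1.42 and 15.4% ± 2.51 in the same order. These 3 shares add up to the whole of Dst and are not separate observations. In the share fit across 4997 transcripts of 2103 genes 0 of the 3 Dst shares passed the adjusted threshold (0.00% of all shares did, limma), and 3 of 3 had an unadjusted p under 0.05, where 4.66% of all shares had. Among the 14460 transcripts fitted by level, to which the 8787-nt and 17210-nt forms belonged, 0 of these 2 passed (0.00692% of all transcripts did), and 1 had an unadjusted p under 0.05 (8.08% of all). The shares of 466 transcripts, 9.33% of those fitted, had no overlap between the groups, and all 3 Dst shares were among them.

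**Figure D3:**
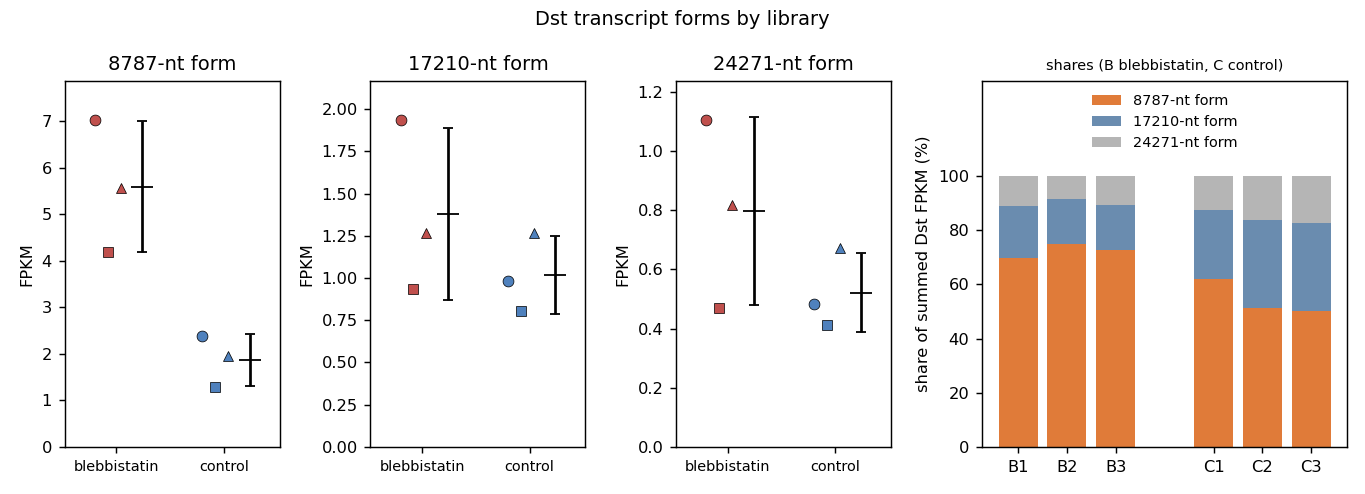
FPKM of the 3 Dst forms with measurable values in each library (symbols as replicates, mean and SD beside them, blebbistatin left and control right), and the share of each form in the summed Dst FPKM per library (stacked bars). The 8787-nt form takes 69.8% to 74.9% of Dst in treated libraries and 50.2% to 61.9% in controls.

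The ratio of the epithelial form to the long forms, taken within each library, was 2.31, 2.99 and 2.67 with blebbistatin and 1.62, 1.05 and 1.01 in controls. This ratio restates the shares given above, so its lack of overlap between the groups is not a further observation. It was lowest of the treated libraries in blebbistatin replicate 1, the library with the highest Dst. Set against the geometric mean of the other 5 plakin genes, Dst was at 0.545, 0.480 and 0.641 with blebbistatin and at 0.304, 0.175 and 0.285 in controls. Ratios within a library show unequal change of the paired quantities. Dst was chosen for its difference, so the gap between the groups in these ratios is no separate support.

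Macf1, the other spectraplakin, guides microtubules along actin towards focal adhesions. It lies on chromosome 4 from 123349633 to 123684360 on the minus strand (Entrez 11426). It stood at 12.6, 7.63 and 8.67 FPKM in treated libraries and at 7.19, 8.29 and 7.85 FPKM in controls. The groups overlapped, and the log2 fold change of 0.25 ± 0.16 (moderated SE) was 0.06 without blebbistatin replicate 1. Its 17414-nt form held 99.4% ± 0.373 of the summed FPKM with blebbistatin and 99.4% ± 0.282 in controls (SD, n = 3 each). The 23495-nt form, which has 6081 bases of its own, was at or under 0.0887 FPKM in every library.

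Plec, the cytolinker of hemidesmosomes, lies on chromosome 15 from 76170974 to 76231378 on the minus strand (Entrez 18810). It had 24.6, 14.1 and 17.0 FPKM in treated libraries and 19.3, 17.2 and 20.7 FPKM in controls. The treated libraries spread over both sides of the controls (log2 fold change -0.07 ± 0.18, moderated SE). Its 15 annotated forms differ mainly at their starts, and the 7 with bases of their own have between 113 and 287 of them in transcripts of about 15 kb. Of these forms 5 had a mean share of at least 5% over the 6 libraries.

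Within Plec, 1 form had no overlap between the groups, and 1 was high in a single library. NM_201385, which starts at 76229497 and has 140 bases of its own, was at 5.74, 4.16 and 5.98 FPKM in treated libraries and at 2.17, 3.22 and 3.89 FPKM in controls. Its groups did not overlap (log2 fold change 0.63 ± 0.19, moderated SE), and its share was 29.3% ± 5.89 with blebbistatin and 16.3% ± 4.38 in controls (SD, n = 3 each). It was the 1 transcript of the other 5 genes, of 9 fitted by level, without overlap, where 13.3% of all transcripts fitted have none in either direction and 6.90% have none and are higher. NM_201392, with 113 bases of its own, took 39.9% of Plec in control replicate 1 and at most 0.394% in each of the other 5 libraries. In that same control library the main form, NM_201394, took 28.3%. It took 39.5% to 54.4% in treated libraries and 52.6% to 59.0% in the other controls. Apart from NM_201385, the shares of the Plec forms overlapped between the groups, and all rest on few distinguishing bases.

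Desmoplakin was the most abundant plakin by FPKM. Dsp, on chromosome 13 from 38151294 to 38198577 on the plus strand (Entrez 109620), had 73.3, 50.4 and 50.0 FPKM in treated libraries and 51.3, 63.8 and 54.1 FPKM in controls. Blebbistatin replicate 1 was the highest library and the other treated libraries were the lowest (log2 fold change 0.02 ± 0.16, moderated SE).

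The envelope plakins, which form heterodimers with each other, were alike in their pattern over the libraries. Evpl, on chromosome 11 from 116220559 to 116238091 on the minus strand (Entrez 14027), stood at 7.77, 4.86 and 4.38 FPKM with blebbistatin and at 5.50, 5.96 and 5.76 FPKM in controls. Ppl, on chromosome 16 from 5086291 to 5132481 on the minus strand (Entrez 19041), stood at 12.1, 8.21 and 7.46 FPKM with blebbistatin and at 8.33, 11.1 and 9.28 FPKM in controls. In both, blebbistatin replicate 1 was above every control, and blebbistatin replicates 2 and 3 were below every control. Their log2 fold changes were -0.05 ± 0.17 for Evpl and -0.06 ± 0.17 for Ppl (moderated SE), and with single libraries left out the sign of both turned, as did those of Plec and Dsp. The median log2 fold change of the 6 plakin genes was -0.01, and that of all genes tested was 0.01.

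Per unit length the order of the genes in treated libraries was Dsp (57.9 ± 13.4 FPKM), Plec (18.6 ± 5.40), Macf1 (9.64 ± 2.63), Ppl (9.25 ± 2.48), Dst (7.77 ± 2.23) and Evpl (5.67 ± 1.84 FPKM, SD, n = 3), and from Macf1 on the libraries of neighbours in this order overlapped. In controls it was Dsp (56.4 ± 6.60 FPKM), Plec (19.0 ± 1.77), Ppl (9.56 ± 1.39), Macf1 (7.78 ± 0.551), Evpl (5.74 ± 0.234) and Dst (3.41 ± 0.791 FPKM, SD, n = 3), with no overlap of libraries between any of these neighbours. Dst was the least abundant plakin in every control library and was above Evpl in every treated one. Epiplakin (Eppk1), a plakin that binds keratins and is not among the 6, was at 11.9, 4.38 and 6.50 FPKM with blebbistatin and at 6.87, 5.57 and 7.93 FPKM in controls.

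All 6 plakin genes were highest in blebbistatin replicate 1, and so was Eppk1. Over all genes that library was the highest of the 6 for 18.6%, and the share went with transcript length: 13.4% of genes under 2000 nt, 18.0% of those from 2000 to 5000 nt, 27.5% of those from 5000 to 10000 nt and 60.3% of the 174 genes of 10000 nt or more. The median of these longest genes deviated from the mean of the 6 libraries by 0.16, -0.10 and 0.01 (log2) in blebbistatin replicates 1 to 3 and by -0.18, 0.09 and 0.03 in control replicates 1 to 3. Dst, Plec and Macf1 are in this length class. Dsp (9592 nt), Evpl (6398 nt) and Ppl (6277 nt) are in the class from 5000 to 10000 nt, whose median deviated by 0.04 in blebbistatin replicate 1. Dst deviated by 0.85, 0.11 and 0.50 in the treated libraries and by -0.34, -0.81 and -0.32 in the controls. After removal of each library's trend with length, the log2 fold change of Dst was 0.94. The part that length plays in the common high values of blebbistatin replicate 1 was not tested.

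**Figure D4:**
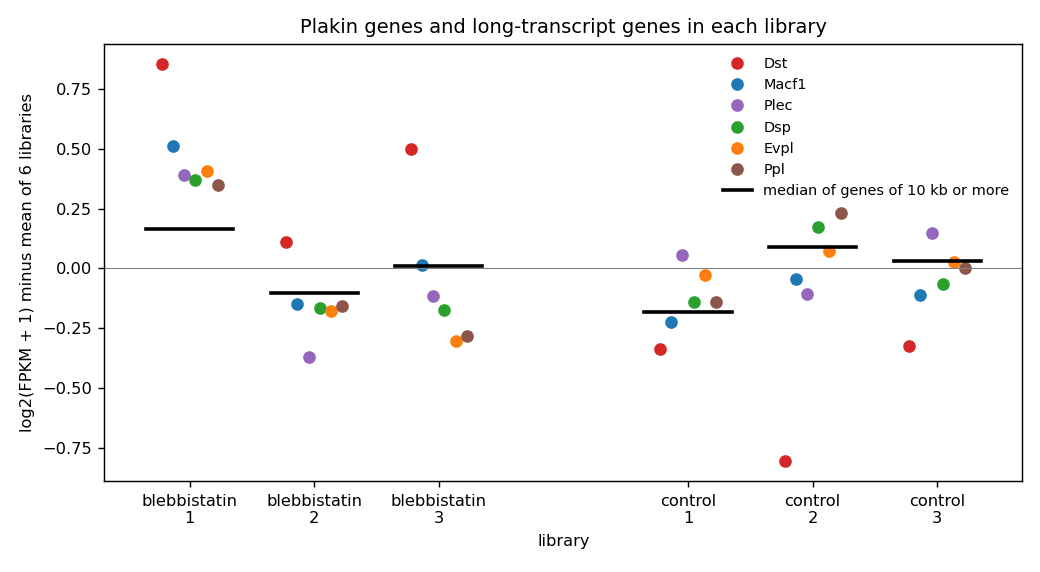
Deviation of log2(FPKM + 1) of each plakin gene from its mean over the 6 libraries (points), with the median deviation of the 174 genes of 10000 nt or more (black bars), blebbistatin libraries left and control libraries right. All 6 genes are above 0 in blebbistatin replicate 1, and Dst is above 0 in all treated libraries and below 0 in all controls. Of the 6 genes, Dst, Plec and Macf1 are of 10000 nt or more, and Dsp, Evpl and Ppl are shorter.

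The genes of the structures that plakins join gave 0 calls. Of 62 genes in 8 lists, drawn up with earlier results of these data known, 49 were tested, 0 passed an adjusted p of 0.05 in either direction (limma, 0.0780% of all genes), and 5 had an unadjusted p under 0.05 (9.36% of all genes). Without overlap between the groups were 4 higher and 2 lower genes, 6 of 49, where 14.3% of all genes have none.

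Of 7 hemidesmosome genes 5 had higher and 2 lower means with blebbistatin, 0 passed, and the median log2 fold change was 0.08. Itga6, the α6 chain of the integrin to which dystonin and plectin are linked, stood at 90.0, 96.4 and 91.6 FPKM in treated libraries and at 63.6, 82.9 and 85.6 FPKM in controls, without overlap (log2 fold change 0.27 ± 0.12, SE, adjusted p = 0.575, limma). Its partner chain Itgb4 was at 58.9, 41.5 and 46.9 FPKM with blebbistatin and at 38.0, 40.7 and 47.5 FPKM in controls (adjusted p = 0.824, limma). Lamb3, the β3 chain of laminin-332, averaged 19.2 ± 4.77 FPKM with blebbistatin and 14.6 ± 2.18 FPKM in controls (SD, n = 3 each; adjusted p = 0.593, limma). Col17a1, the transmembrane collagen bound by BP230, was at 68.6, 54.8 and 51.9 FPKM with blebbistatin and at 86.8, 57.0 and 59.8 FPKM in controls, and the groups overlapped. Set against Col17a1 within each library, the epithelial Dst form was at 0.102, 0.0766 and 0.107 with blebbistatin and at 0.0274, 0.0225 and 0.0326 in controls. Set against Itgb4 it was at 0.119, 0.101 and 0.119 with blebbistatin and at 0.0627, 0.0315 and 0.0411 in controls. Both ratios were higher in every treated library than in any control. The epithelial form had no overlap by itself and was chosen for its difference, so these ratios are no separate support.

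Of 9 tested desmosome genes, 5 had higher and 4 lower means, 0 passed, and the median log2 fold change was 0.00. Dsc3, a desmosomal cadherin of basal cells, stood at 3.17, 2.83 and 2.47 FPKM in treated libraries and at 1.96, 1.91 and 1.78 FPKM in controls, without overlap (log2 fold change 0.41 ± 0.11, SE, adjusted p = 0.208, limma). Pkp4, a plakophilin-related armadillo protein, averaged 53.3 ± 7.88 FPKM with blebbistatin and 44.0 ± 1.36 FPKM in controls (adjusted p = 0.523, limma). Jup, plakoglobin, which binds desmoplakin to the cadherins, averaged 87.3 ± 11.0 FPKM with blebbistatin and 106.5 ± 12.1 FPKM in controls (adjusted p = 0.556, limma).

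Intermediate filament genes had 4 higher and 5 lower means among 9 tested, 0 passed, and the median log2 fold change was -0.15, which turned to 0.23 without control replicate 1 and to 0.16 without blebbistatin replicate 3. Krt15, a basal keratin, had 70.0, 27.4 and 43.7 FPKM in treated libraries and 38.3, 15.6 and 19.7 FPKM in controls, which overlapped (log2 fold change 0.91 ± 0.38, SE, adjusted p = 0.498, limma). Krt14, the keratin of basal cells that BP230 anchors together with Krt5, averaged 193 ± 52.1 FPKM with blebbistatin and 140 ± 26.5 FPKM in controls (adjusted p = 0.613, limma), whereas Krt5 was at 30.2, 14.3 and 11.9 FPKM with blebbistatin and at 33.5, 14.3 and 14.8 FPKM in controls. Vim averaged 350 ± 21.1 FPKM with blebbistatin and 305 ± 30.7 FPKM in controls (adjusted p = 0.700, limma). The simple keratins Krt8 and Krt18 had lower means with blebbistatin, 328 and 318 FPKM, than in controls, 380 and 359 FPKM, with overlap between the groups.

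Of the 10 microtubule end genes 6 had higher and 4 lower means, 0 passed, and the median log2 fold change was 0.05. Mapre3, an end-binding protein, stood at 4.61, 5.13 and 4.93 FPKM in treated libraries and at 6.19, 5.45 and 6.22 FPKM in controls (log2 fold change -0.24 ± 0.09, SE, adjusted p = 0.429, limma). Dctn1, the large dynactin subunit, averaged 47.9 ± 2.31 FPKM with blebbistatin and 51.8 ± 1.45 FPKM in controls, also without overlap (adjusted p = 0.849, limma). Camsap3, which holds microtubule minus ends and binds Macf1, averaged 28.0 ± 5.45 FPKM with blebbistatin and 31.6 ± 1.61 FPKM in controls (adjusted p = 0.841, limma).

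Other linkers with actin-binding calponin homology domains gave 0 calls among 8 tested, with 6 higher and 2 lower means and a median of 0.03. Parva, α-parvin of focal adhesions, averaged 44.5 ± 2.07 FPKM with blebbistatin and 38.0 ± 3.09 FPKM in controls, without overlap (adjusted p = 0.492, limma). Actn1, α-actinin 1, averaged 72.8 ± 7.93 FPKM with blebbistatin and 64.0 ± 7.51 FPKM in controls (adjusted p = 0.802, limma). Of 4 tested nuclear envelope linkers 0 passed (median 0.04). Syne2 and Syne4, nesprins, averaged 2.70 ± 0.982 and 21.5 ± 3.97 FPKM with blebbistatin and 2.46 ± 0.214 and 19.5 ± 2.40 FPKM in controls, and Sun2, their inner membrane partner, 38.0 ± 5.39 FPKM with blebbistatin and 39.5 ± 1.98 FPKM in controls. Of the cornified envelope genes, the setting in which Evpl and Ppl are best known, 7 of the 8 in the table were under 1 FPKM in every library, among them involucrin and loricrin, and the transglutaminase Tgm1 averaged 8.04 ± 3.28 FPKM with blebbistatin and 5.87 ± 1.01 FPKM in controls (adjusted p = 0.853, limma).

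**Figure D5:**
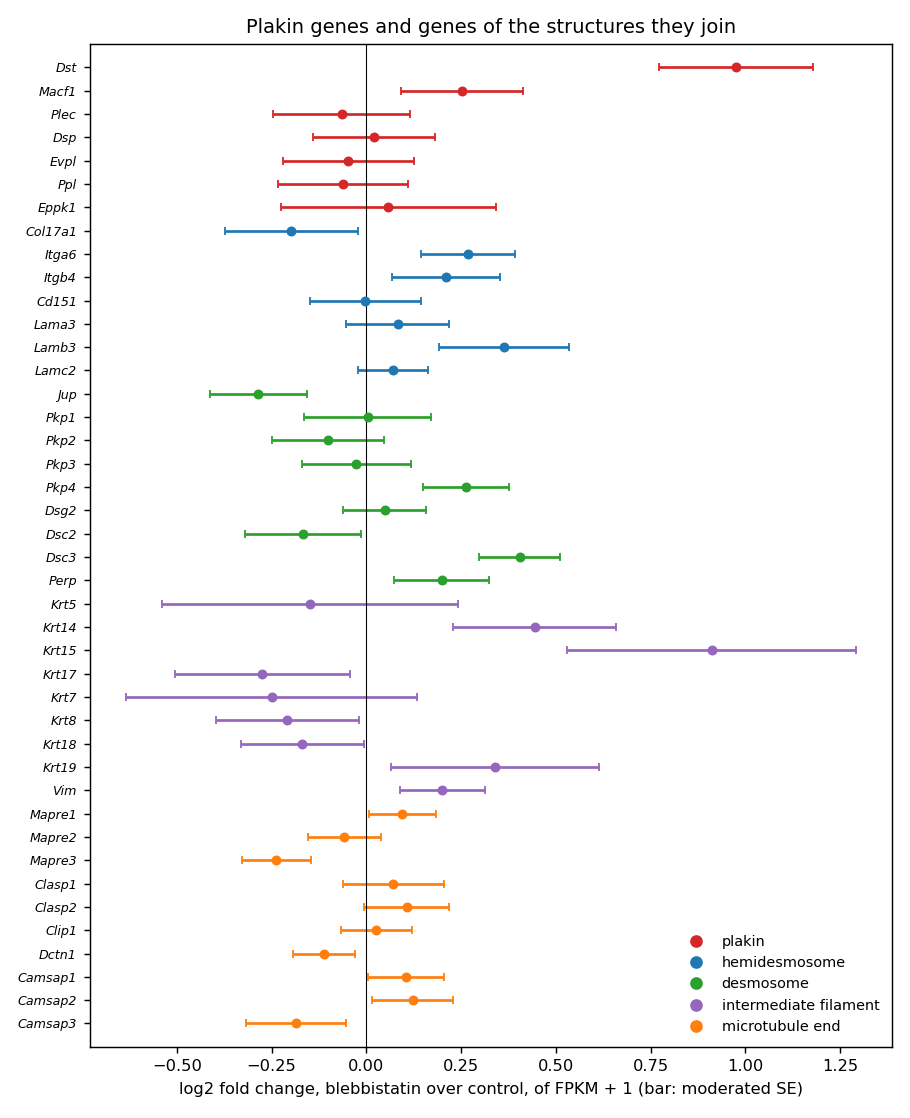
Log2 fold change (blebbistatin over control, of FPKM + 1) with the moderated SE for the 6 plakin genes, Eppk1 and the tested genes of hemidesmosomes, desmosomes, intermediate filaments and microtubule ends. Dst lies at 0.98, the other plakin genes between -0.07 and 0.25, and Krt15, at 0.91 with an SE of 0.38, is the partner gene nearest to Dst.

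Epithelial markers were abundant in all 6 libraries. Estimated depth was 2.73e+07 to 2.79e+07 fragments in treated libraries and 2.80e+07 to 3.32e+07 fragments in controls. The 7 epithelial markers, Epcam and Cdh1 among them, summed to 1193 to 1441 FPKM in treated libraries and 1276 to 1602 FPKM in controls, and the 6 basal markers to 339 to 509 and 297 to 410 FPKM in the same order, and 0 of either list passed. Of the epithelial markers 2 had higher and 5 lower means with blebbistatin (median log2 fold change -0.13). Of the basal markers 4 had higher and 2 lower means (median 0.16). Trp63, the basal transcription factor p63, was at 44.5, 52.5 and 49.2 FPKM with blebbistatin and at 43.1, 46.5 and 45.1 FPKM in controls. The other cell types in which dystonin is known, neurons and muscle, left little RNA: 9 of 10 neuronal markers were under 1 FPKM in every library (sum 1.85 to 3.28 FPKM with blebbistatin, 0.790 to 3.15 FPKM in controls), as were 6 of 9 skeletal muscle markers (sum 7.48 to 10.8 FPKM with blebbistatin, 10.8 to 16.8 FPKM in controls, mostly Myh3). The 8 Schwann cell markers summed to 11.0 to 11.9 FPKM with blebbistatin and 10.7 to 12.6 FPKM in controls, mostly Mbp. Of these 8, 6 were under 1 FPKM in every library. The 10 mesenchymal markers summed to 4.41 to 9.44 FPKM with blebbistatin and 5.75 to 22.0 FPKM in controls, the highest being control replicate 1. Endothelial markers reached at most 1.02 FPKM and leukocyte markers at most 3.54 FPKM as sums in any library. The part of these cells in the Dst values was not tested.

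Over the 6 libraries the genes closest to Dst by Pearson's r of log2(FPKM + 1), among the tested genes left after the exclusions given with the processing, were Fgfr2 (0.991), Fst (0.987), Dlk2 (0.980), Wls (0.980) and Fgfr3 (0.979), and the most opposed were Tgfb1 (-0.997) and Arhgef28 (-0.997). These are the extremes of the genes so kept, out of 11540, over 6 points that share their depth and group structure, and they are given as a description. Fgfr2, the receptor of gland-forming FGF signals, was at 47.5, 40.5 and 44.0 FPKM with blebbistatin and at 38.7, 35.1 and 37.3 FPKM in controls. Fst, follistatin, which binds activin, was at 38.8, 26.4 and 29.6 FPKM with blebbistatin and at 20.1, 15.9 and 22.5 FPKM in controls. Tgfb1, a ligand of the TGF-β family, was at 9.21, 15.7 and 11.7 FPKM with blebbistatin and at 23.0, 29.4 and 21.1 FPKM in controls. In all 7 genes the groups did not overlap. The same measure between Dst and its family or partners was 0.71 for Macf1, 0.32 for Plec, 0.20 for Dsp, 0.16 for Evpl, -0.001 for Ppl, 0.76 for Itgb4, 0.48 for Itga6 and -0.09 for Col17a1.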

How the data were processed

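The authors deposited gene and transcript tables in FPKM, per the file headers, with the RefSeq annotation used. TopHat2 2.0.13, Bowtie2 2.2.3, Cufflinks 2.2.1 and the build mm10 are named in the submitters' processing notes. The deposited transcript lengths and exon positions were used as given, counted from 1. BB in a column name was read as blebbistatin, and a name with no number as replicate 1. No source used here says if strand was kept.

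FPKM are not counts, so limma 3.58.1 (R 4.3.3) was run on log2(FPKM + 1) values (empirical Bayes with a mean-variance trend, treatment as the only term, Benjamini-Hochberg threshold 0.05) for the 11540 genes and 14460 transcripts with a mean of at least 1 FPKM. All 6 plakin genes and 11 of their 24 transcripts passed this filter. Fold changes are blebbistatin minus control and understate low values. Shares are a transcript's FPKM over the sum for its gene, tested on the arcsine square root scale for genes with at least 2 transcripts whose summed FPKM averaged 5 or more, and for mean shares of 0.05 to 0.95. The scripts were tested on simulated data. Cufflinks assigns fragments of shared exons by a model, so shares of forms with few bases of their own are uncertain.

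Depth was estimated from single-transcript genes over 2000 nt, whose low values step by 1 fragment. Within 0.1 of a whole number lay 80.1% to 84.3% of values under 4.5 fragments, so reads were not recovered and no count model was run. The members, lists and tests were chosen with earlier results of these data known. Named besides the members are up to 3 genes of smallest p per partner list and the 5 genes most like and 2 least like Dst, without small RNAs, Y-linked genes, Xist and genes whose transcripts are all under 300 nt. Col17a1, Krt5, Krt8, Krt18 and Trp63 were added after their values were seen. A gene that the rule named is not reported here. Alternatives were the filter, pseudocount, scaling, length trend, replicate block, share scale and each library left out.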

Additional observations from a re-analysis of the deposited data

How the results depend on the processing

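The log2 fold change of Dst was between 0.79 and 1.17 over its 13 alternatives. That of the 8787-nt form was between 1.04 and 1.54 over 11 (1.54 with a pseudocount of 0.1). The share of the 8787-nt form was higher by 15.9 to 21.7 percentage points over 10. The filters, the replicate block and the share scale cannot change these differences, so only the remaining alternatives bear on them. The count of 9 genes past the threshold was 1 with no filter, 14 after quantile normalization, 27 when at least 5 FPKM was required, 2 after median-of-ratios rescaling, 18 without the length trend, and 1 to 13 with 1 library left out. The count of 1 transcript was 9 with no filter, 3 after quantile normalization (1 higher, 2 lower), 2 when at least 5 FPKM was required and 1 to 11 with 1 library left out. The count of 0 shares was 2 with a minimum sum of 1 FPKM, 1 on the logit scale and 0 to 2 with 1 library left out. With 1 library left out, 0 plakin genes, transcripts or shares passed. The log2 fold change of Plec ranged there from -0.28 to 0.10, of Dsp from -0.16 to 0.11, of Evpl from -0.26 to 0.09 and of Ppl from -0.25 to 0.06, so none of these has a stable sign. The median of the intermediate filament list ranged from -0.30 to 0.23 and that of the desmosome list from -0.16 to 0.10, and the medians of the microtubule end, calponin homology and nuclear envelope lists also changed sign. The causes were not tested. With the replicate number as a block 144 genes passed (1.25% of those tested, 53 higher and 91 lower). Among them were 1 plakin gene, Dst (adjusted p = 0.0258, limma), and 1 intermediate filament gene, Krt15. Dst was chosen by this contrast and Krt15 stands in a list drawn up with it known, so these calls are descriptions only. The labels state no pairing. Deviations of same-numbered libraries correlated with r of 0.18, 0.09 and 0.25 across genes, and 6 of 6 libraries correlated best with the library of their own number. Whether the numbers pair the libraries is not settled by these values. Of 474 alternative values 450 stayed within the replicate spread or within 1.5 times the count. These include values that their setting cannot change, so the tally overstates stability. A wide spread also hides large moves: the share difference of NM_201392 went from -13.2 to 0.13 percentage points without control replicate 1. An estimated 319 to 748 fragments a library stood behind the 24271-nt form and 374 to 1721 behind the 8787-nt form.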

Other observations

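Among linker genes below the filter of 1 FPKM, which were singled out after their values were seen and not tested, the giant nesprin Syne1 had lower values in every treated library (0.631, 0.706 and 0.793 FPKM) than in any control (0.978, 1.07 and 1.23 FPKM). Syne3, a smaller nesprin that binds plectin, had higher values in every treated library (0.479, 0.292 and 0.244 FPKM) than in any control (0.123, 0.206 and 0.155 FPKM). Dmd, dystrophin, overlapped, with 0.494, 0.697 and 0.737 FPKM with blebbistatin and 0.477, 0.642 and 0.570 FPKM in controls.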
